A study of Mus musculus with 30 samples.

Results

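The vomeronasal organ (VNO) of the mouse embryo at E14.5 was compared between its epithelial fraction (EPI) and the mesenchyme dissected beside it (MES), on 3 Affymetrix Mouse Exon 1.0 ST arrays of each. These 6 of the 30 arrays of the series were chosen by the tissue, stage and fraction in their labels, and no measured value entered the choice. All embryos were wild type, with the strain background given as F1 of a C57Black6 x DBA cross, and received no treatment. Heads were sliced on a vibratome, and the VNO epithelium or the mesenchyme next to it was picked out of the slices by hand. Each array carried RNA of 1 pool of at least 4 embryos, and nothing in the labels says whether pools shared litters. The tests below therefore weigh differences against the spread of these pools. The same pair of fractions of the main olfactory epithelium (OE) at E14.5, from embryos of the same background and also on 3 arrays each, served to show where the VNO differed.

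The VNO is a paired chemosensory tube at the base of the nasal septum, which detects pheromones and other social cues. Its epithelium buds from the olfactory placode and comes to hold receptor neurons, supporting cells and a non-sensory part. The receptor neurons signal through the G protein subunits encoded by Gnai2 and Gnao1, in an apical and a basal layer. GnRH neurons, which later control reproduction, and ensheathing glia leave the placode region and follow the vomeronasal nerve through the nasal mesenchyme. That mesenchyme comes largely from the neural crest and forms the cartilage, bone and connective tissue of the nose, in which skeletal muscle also develops.

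Levels are given as deposited, as log2 RMA values of a transcript cluster, the set of probes along the exons of a gene. The median difference between EPI and MES over all 23238 clusters was -0.24 on the log2 scale. Every difference below is relative to this shift, with its standard error, and calls required a limma adjusted p (Benjamini-Hochberg over all clusters) no higher than 0.05 together with a relative difference of at least 0.9 in size. Of 14090 genes with a single symbol, olfactory receptor genes aside, 965 (6.85%) were called higher in EPI and 246 (1.75%) lower. These shares are the base beside which each list count in the VNO is to be read. The split depended on the scale: 79.7% of the calls were higher relative to the median shift, 38.0% on the deposited values (401 higher, 653 lower), 89.9% with each array centred on its median (1404 and 157) and 78.2% after quantile normalization. The Rank Products test of the study's methods called 288 genes higher and 6 lower. Over the same genes the median relative difference was 0.14, with quartiles at -0.17 and 0.48.

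Replicates correlated across clusters with Pearson's r of 0.985 to 0.986 in EPI and 0.977 to 0.987 in MES. Array medians were 6.72 to 6.76 in EPI and 7.01 to 7.16 in MES. MES VNO replicate 2 stood apart from the other MES arrays on the second principal component. Eif2s3y, on the Y chromosome and looked at after its values were seen, was at 7.03 to 7.12 in EPI and 8.88 to 9.10 in MES, so the pools of the fractions were not alike in this gene. The part of this difference in other results was not tested.

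Markers bore out the fraction names only in part. Of 6 measured epithelial markers, 2 were called higher in EPI: Epcam, an adhesion molecule of epithelial cells, at a relative difference of 1.11 ± 0.09 (SE), and Krt18, a keratin of simple epithelia, at 0.91 ± 0.09. The Epcam call was lost on the deposited values, after quantile normalization and by Rank Products. Cdh1, which encodes E-cadherin, was at 9.93, 9.89 and 9.89 in EPI and at 9.80, 9.63 and 9.82 in MES, a relative difference of 0.40 that was under the minimum. The epithelial adhesion gene was thus at similar levels on the arrays of both fractions. None of 7 mesenchymal markers was called in either direction. Twist1, a transcription factor of mesenchyme, had a relative difference of 0.65 and Pdgfra, a receptor of mesenchymal cells, one of -0.37. The genes that the study's methods used as markers gave a mixed picture. Fmo2, a detoxifying enzyme, was higher in EPI by 1.81 ± 0.17, and Ehf, a transcription factor of epithelia, by 0.98 ± 0.12. The Ehf call was lost on the deposited values, after quantile normalization, by Rank Products and without MES VNO replicate 2. Foxj1, the regulator of motile cilia, was at 0.90 ± 0.13, below the minimum before rounding. Sp7 (osterix), a transcription factor of bone-forming cells taken as a mesenchymal marker, was higher in EPI by 2.00 ± 0.14. Cnmd (earlier Lect1, chondromodulin), the other mesenchymal marker, was at -0.54 ± 0.10 and not called.

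Bone genes had the largest median relative difference of the 35 gene lists. Of 11 measured genes in a list of 17, 8 were higher in EPI and none lower, with a list median of 2.00. The summed level of the list was 12.65 to 12.75 on the EPI arrays and 10.45 to 10.64 on the MES arrays. The count was 8 on every scale tried, by Rank Products and without each array in turn, and 6 among clusters brighter than the median. In bulk tissue, more cells of a type and more RNA per cell cannot be told apart.

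Ibsp, which encodes bone sialoprotein of mineralizing matrix, was at 11.57, 11.59 and 11.50 in EPI and at 7.65, 7.20 and 7.74 in MES. It had the largest relative difference of all genes counted, 4.26 ± 0.16 (19.2-fold, limma adjusted p = 0.000272). Its fractions were apart by far more than the arrays of either one, whereas 43.4% of all genes had EPI arrays above MES arrays with no overlap. Phex, an endopeptidase that acts in phosphate balance and mineralization, was at 7.38, 7.52 and 7.54 in EPI and 5.36, 5.25 and 5.23 in MES, a relative difference of 2.44 ± 0.09. Panx3, a channel protein of osteoblasts and cartilage cells, was at 9.51, 9.53 and 9.42 in EPI and 7.46, 6.98 and 7.00 in MES, a relative difference of 2.58 ± 0.15. Both genes were high on all EPI arrays and low on all MES arrays. Alpl, the alkaline phosphatase that bone cells need to mineralize matrix, was at 10.02, 9.95 and 9.77 in EPI and 8.66, 8.44 and 8.51 in MES, with a relative difference of 1.62 ± 0.11. Mmp13, a collagenase of late cartilage and bone, rose by 2.87 ± 0.14, and Ifitm5, a membrane protein of osteoblasts, by 2.27 ± 0.11. Smpd3, a sphingomyelinase required for normal mineralization, rose by 1.77 ± 0.10. The members that did not pass were Dmp1 and Mepe, matrix proteins of osteocytes, at 0.59 and -0.01, and Bmp3, at 0.10.

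Skeletal muscle had the second highest list median. Of 15 measured genes in a list of 23, 11 were higher in EPI and none lower, with a list median of 1.44 and a summed level of 11.66 to 11.83 in EPI against 10.05 to 10.15 in MES. The count was 11 without each array in turn, 9 by Rank Products and 9 on the deposited values. Among clusters brighter than the median it was 4.

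Tnnc1, the troponin C of slow and cardiac muscle, was at 9.53, 9.36 and 9.27 in EPI and at 6.30, 6.14 and 6.41 in MES. This gave a relative difference of 3.35 ± 0.11 (10.2-fold, limma adjusted p = 0.000272). Myl1, a myosin light chain of fast muscle, was at 7.16, 7.40 and 7.77 in EPI and 5.16, 4.87 and 4.95 in MES, a relative difference of 2.69 ± 0.18. The contractile genes were thus higher on each EPI array than on any MES array, as were 43.4% of all genes. Myog, the transcription factor that drives myoblast differentiation, was at 8.59, 8.48 and 8.70 against 6.46, 6.70 and 6.22, a relative difference of 2.37 ± 0.14. The earlier myogenic factors Myod1 and Myf5 rose too, by 1.94 ± 0.14 and 1.44 ± 0.13. Des, the intermediate filament of muscle, was at 7.59, 7.20 and 7.33 in EPI and 5.40, 5.53 and 5.49 in MES, with a relative difference of 2.14 ± 0.12. The acetylcholine receptor subunits Chrna1 and Chrnd rose by 1.32 and 1.05. Ckm, Tnnt3, Tnnc2 and Myf6, genes of more mature fibres, were not called, at 0.20 to 0.74.

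**Figure D1:**
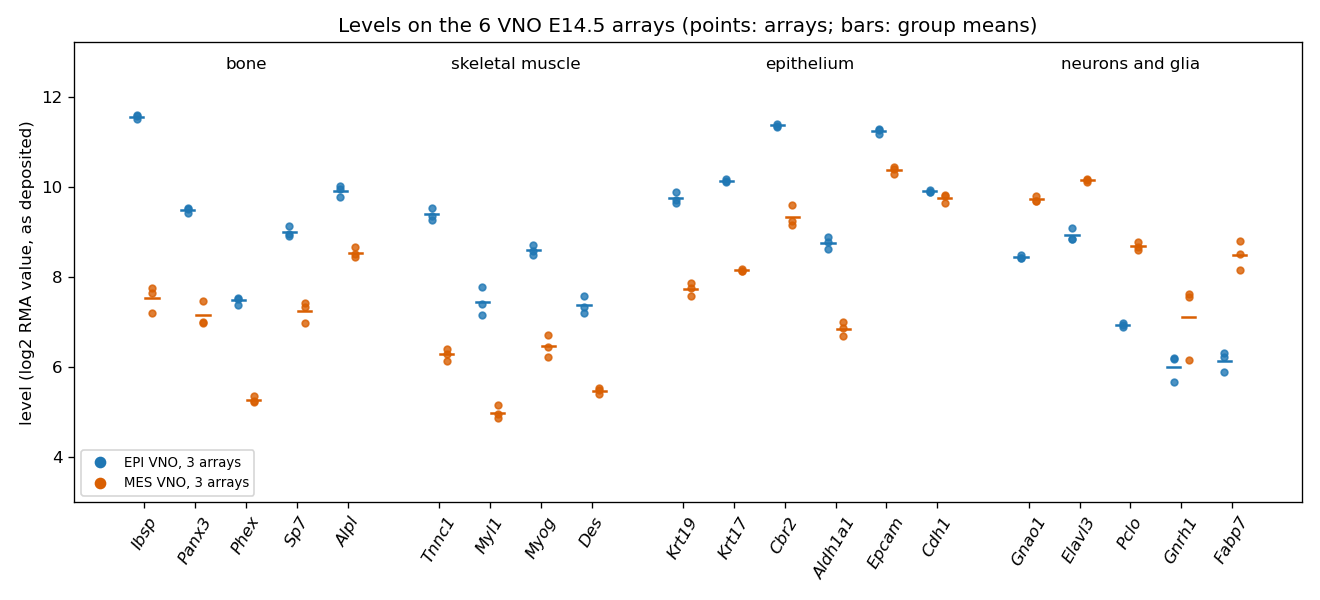
Levels of 20 genes on the 6 VNO arrays at E14.5, as deposited log2 RMA values (vertical axis), with 1 point for each array and a bar at each group mean. Bone, muscle and keratin genes are higher on all 3 EPI arrays (Ibsp about 11.6 against 7.5), Cdh1 is nearly level, and Gnao1, Elavl3, Pclo and Fabp7 are lower in EPI.

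Promoter windows of 2 bone genes and 2 muscle genes higher in EPI are shown because these lists hold the highest medians. The 4 were picked after the values were seen and each holds a motif match, so they do not stand for the other members. RefSeq windows of the GRCm38.p6 build, from 250 bases before to 50 after a start site, were found for 5 of the 8 bone genes and 9 of the 11 muscle genes higher in EPI. They were searched on both strands for TGTGGT, the core bound by RUNX factors of bone and blood. They were also searched for the E-box CAGCTG, which myogenic factors can bind and which reads the same on both strands. The windows printed lie at chr5:104299037-104299336 (+, Ibsp), chr9:7272264-7272563 (+, Mmp13), chr1:66945007-66945306 (-, Myl1) and chr1:75360042-75360341 (+, Des), and each starts upstream of its gene.
Ibsp: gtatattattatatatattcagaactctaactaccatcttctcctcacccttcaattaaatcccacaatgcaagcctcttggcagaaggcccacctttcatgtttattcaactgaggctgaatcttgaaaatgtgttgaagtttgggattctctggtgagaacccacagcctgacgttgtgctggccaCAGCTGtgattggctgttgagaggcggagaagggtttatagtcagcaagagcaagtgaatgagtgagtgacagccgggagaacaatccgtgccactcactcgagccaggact
Mmp13: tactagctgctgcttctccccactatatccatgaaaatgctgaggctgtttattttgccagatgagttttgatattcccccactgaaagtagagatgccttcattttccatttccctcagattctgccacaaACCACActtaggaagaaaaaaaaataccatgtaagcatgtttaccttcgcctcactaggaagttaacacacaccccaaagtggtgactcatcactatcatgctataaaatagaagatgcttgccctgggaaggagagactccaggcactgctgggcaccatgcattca
Myl1: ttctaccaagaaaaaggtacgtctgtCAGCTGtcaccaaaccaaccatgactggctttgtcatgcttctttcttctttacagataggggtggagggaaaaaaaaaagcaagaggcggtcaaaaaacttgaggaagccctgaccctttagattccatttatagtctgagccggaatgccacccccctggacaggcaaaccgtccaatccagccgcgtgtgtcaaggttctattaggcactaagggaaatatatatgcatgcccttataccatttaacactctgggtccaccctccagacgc
Des: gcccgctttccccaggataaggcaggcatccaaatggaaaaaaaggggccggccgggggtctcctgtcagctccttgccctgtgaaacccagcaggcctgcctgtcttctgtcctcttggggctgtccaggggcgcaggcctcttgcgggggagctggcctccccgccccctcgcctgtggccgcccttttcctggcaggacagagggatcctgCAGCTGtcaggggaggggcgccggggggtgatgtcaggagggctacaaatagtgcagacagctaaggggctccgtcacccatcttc
Capitals mark the E-box in Ibsp, Myl1 and Des. In Mmp13 they mark the RUNX core on the opposite strand, where it reads ACCACA. The E-box began 62 bases before the start site in Ibsp, 36 before it in Des and 224 before it in Myl1, and the RUNX core 118 bases before it in Mmp13. CAGCTG was found for 6 of the 9 muscle genes and 2 of the 5 bone genes with a window, beside 16.3% of all 32851 windows. The RUNX core was found for 1 of 5 bone genes and 3 of 9 muscle genes, beside 16.8% of all windows. A gene was counted if any of its windows matched, so these counts and shares have unlike bases. A match describes the letters only and does not show that a factor binds there.

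Keratins were the clearest epithelial list. Of 11 measured, 7 were higher in EPI and 1 lower, with a list median of 1.41, and Rank Products called 6 of them higher. Krt19, a keratin of simple and glandular epithelia, was at 9.88, 9.64 and 9.72 in EPI and at 7.86, 7.76 and 7.58 in MES, a relative difference of 2.25 ± 0.11 (limma adjusted p = 0.00043). Krt17 was at 10.12, 10.10 and 10.18 against 8.18, 8.12 and 8.14, a relative difference of 2.23 ± 0.08. These filament genes were high on all EPI arrays, with no overlap, which was the case for 43.4% of all genes. The basal cell keratins Krt14 and Krt5 rose by 1.99 ± 0.16 and 1.74 ± 0.10, and Krt4, a keratin of mucosal surfaces, by 1.79 ± 0.08. Krt16 was called lower, at -0.90 ± 0.14, on levels of 3.06 to 3.46 in EPI, and lost this call after quantile normalization, after centring and without any of 4 arrays (EPI VNO replicates 2 and 3, MES VNO replicates 1 and 2).

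Junction genes moved less. Of 12 claudins, which seal tight junctions, 4 were higher in EPI with a list median of 0.57: Cldn8 by 1.88 ± 0.19, Cldn4 by 1.68 ± 0.14, Cldn9 by 1.19 and Cldn1 by 0.91, the last not called without MES VNO replicate 2 or either of EPI VNO replicates 2 and 3. Rank Products called 2 of the claudins. In the list of epithelial identity, 8 of 29 measured genes were higher and none lower, with a median of 0.64. Its largest members were Spint2 and Spint1, inhibitors of epithelial serine proteases, at 1.24 ± 0.10 and 1.10 ± 0.10, with Epcam at 1.11 and Lamb3, a laminin chain of epithelial basement membrane, at 1.09. This count was 1 on the deposited values, 5 without MES VNO replicate 2 and 0 by Rank Products.

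Detoxifying enzymes of supporting and airway cells formed a further group. Of 27 measured, 11 were higher in EPI and none lower, with a list median of 0.73 and a count of 8 by Rank Products. Aldh1a1, an aldehyde dehydrogenase that makes retinoic acid, was at 8.89, 8.77 and 8.61 in EPI and at 7.00, 6.69 and 6.86 in MES. Its relative difference was 2.15 ± 0.12 (limma adjusted p = 0.000446), with EPI above MES on every array, as for 43.4% of all genes. The related Aldh1a7 and Aldh1a3 rose by 1.93 ± 0.16 and 1.73 ± 0.10, and the monooxygenase Fmo2 was at 8.48, 8.58 and 8.82 against 7.38, 6.88 and 6.91. Conjugating enzymes rose as well: the glutathione transferase Gsta3 by 1.51 and the sulfotransferases Sult1c1 and Sult1e1 by 1.42 and 1.33. Cyp2g1, an olfactory cytochrome P450, was not called at 0.55.

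Secretory and airway genes rose in 8 of 25, with a list median of 0.23 and a count of 4 by Rank Products. Cbr2, a carbonyl reductase abundant in airway epithelium, was at 11.40, 11.36 and 11.32 in EPI and at 9.59, 9.23 and 9.16 in MES, a relative difference of 2.28 ± 0.13. The secreted defence proteins Reg3g and Bpifa1 rose by 1.80 ± 0.22 and 1.54 ± 0.27, and the chloride channel Cftr by 1.29. On the MES arrays Bpifa1 read 9.86, 8.89 and 9.77, with MES VNO replicate 2 the lowest. Of 25 genes of motile cilia, 3 were higher (Cfap126 by 1.57 ± 0.27, Tppp3 by 1.06, Enkur by 0.99) and 1 lower (Ccdc39, at -1.01). Of all genes, 6.85% were higher and 1.75% lower. Enkur was not called without MES VNO replicate 2, and Ccdc39 was not called on centred or quantile-normalized values. The count of higher members was 1 on the deposited values and by Rank Products, 5 with centred arrays, 7 after quantile normalization and 6 without MES VNO replicate 1.

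**Figure D2:**
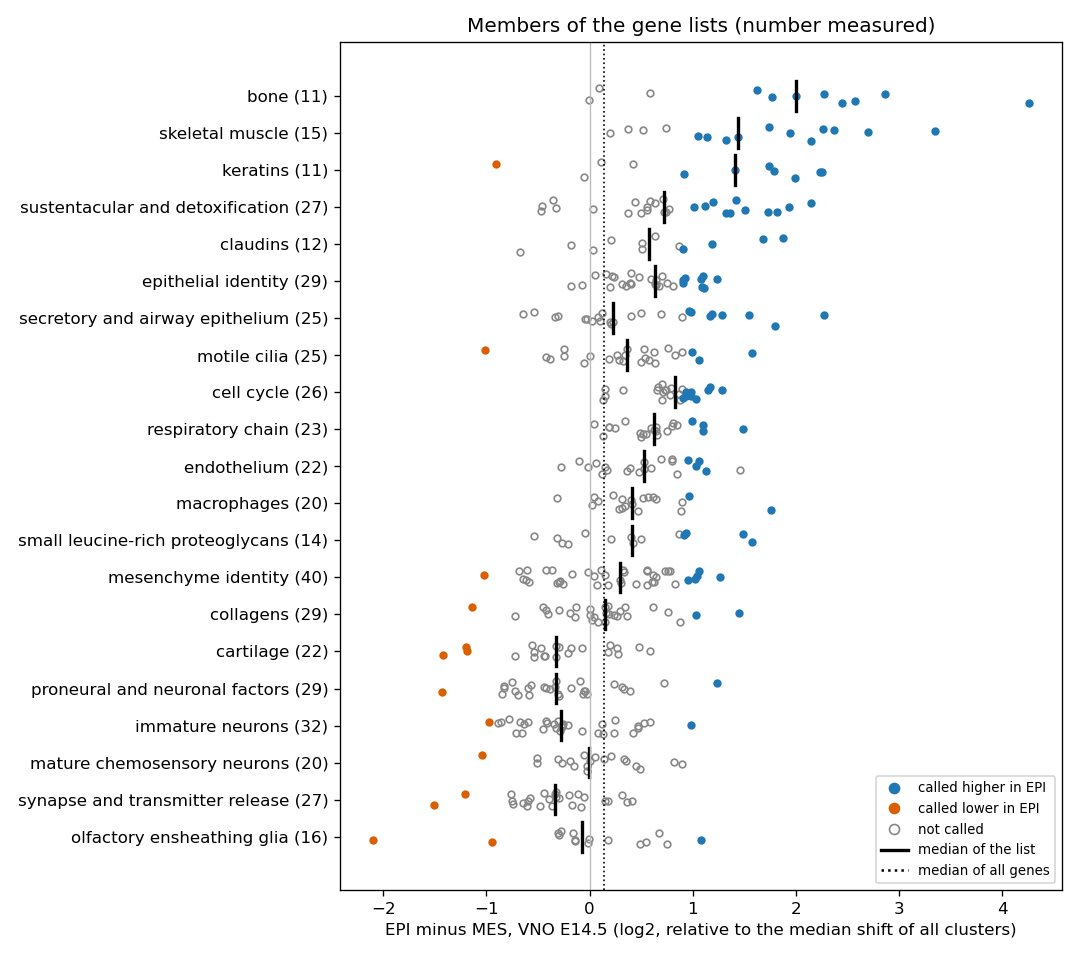
Relative difference between EPI and MES in the VNO at E14.5 (horizontal axis, log2) for each measured member of 21 gene lists, with filled points for called genes, black bars for list medians and a dotted line at the median of all genes (0.14). Bone (2.00), skeletal muscle (1.44) and keratins (1.41) have the highest medians, and the neuronal and cartilage lists lie to the left of the dotted line.

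Neuronal genes did not stand higher in EPI than in MES. Of 32 measured genes of immature neurons 1 was higher and 1 lower, beside 6.85% and 1.75% of all genes. The list median was -0.28, below the median of all genes. Elavl3, an RNA-binding protein of neurons, was at 9.09, 8.85 and 8.84 in EPI and at 10.16, 10.15 and 10.11 in MES, a relative difference of -0.97 ± 0.10 (limma adjusted p = 0.00119). All MES arrays lay above all EPI arrays, which was the case for 21.1% of all genes. Centring of the arrays ended this call. Dcx, a microtubule protein of migrating neurons, was at 8.68, 8.70 and 8.63 in EPI and at 9.75, 9.42 and 9.54 in MES, a relative difference of -0.66 under the minimum. Tubb2b, a tubulin of growing neurons, was the member called higher, by 0.98 ± 0.16, and was not called without EPI VNO replicate 1. The count of lower members was 7 on the deposited values, 6 after quantile normalization and 2 without EPI VNO replicate 1 or 2 or MES VNO replicate 2. It was 0 with centred arrays and 0 by Rank Products.

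Of 29 proneural and neuronal transcription factors, 1 was higher and 1 lower, beside 6.85% and 1.75% of all genes. The list median was -0.33. Isl1, a LIM homeodomain factor, was at 7.99, 7.73 and 7.88 in EPI and at 6.84, 6.95 and 6.84 in MES, a relative difference of 1.23 ± 0.10. Myt1l, a zinc finger factor of postmitotic neurons, was at 6.86, 6.99 and 6.89 against 8.67, 8.43 and 8.63, a relative difference of -1.43 ± 0.10. The 2 called factors thus moved in opposite directions. Of 27 synaptic genes none was higher and 2 were lower, beside the same shares of all genes, with a median of -0.33. Pclo, which encodes the active zone protein piccolo, was at 6.92, 6.97 and 6.89 in EPI and at 8.77, 8.59 and 8.66 in MES, a relative difference of -1.50 ± 0.09. Unc13c, a vesicle priming factor, was lower by a relative difference of -1.20 ± 0.17. On the deposited values, 7 proneural factors and 5 synaptic genes were lower, and 2 proneural factors were lower without EPI VNO replicate 1 or 2 or MES VNO replicate 3. Rank Products called 0 members of either list lower, so Myt1l, Pclo and Unc13c were not called by it, and neither was Isl1. None of 13 placodal factors was called, and their list median was 0.18.

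Genes of vomeronasal sensory neurons were at most weakly different, apart from Gnao1. Gnao1, the G protein subunit of the basal layer, was at 8.41, 8.41 and 8.48 in EPI and at 9.80, 9.68 and 9.68 in MES, a relative difference of -1.05 ± 0.08 (limma adjusted p = 0.000713). It was lower on each EPI array, as were 21.1% of all genes, and Rank Products did not call it. Gnai2, the subunit of the apical layer, was at 10.79, 10.66 and 10.66 in EPI and at 10.81, 10.69 and 10.73 in MES, with a relative difference of 0.20 that turned to -0.04 on the deposited values and -0.15 after quantile normalization. Omp, a marker of mature sensory neurons, was at 8.51, 8.54 and 8.65 in EPI and at 8.12, 7.56 and 8.04 in MES, a relative difference of 0.90 ± 0.16, just under the minimum before rounding. Tfap2e, Bcl11b and Meis2, transcription factors tied to the choice between the layers, had relative differences of -0.04, -0.44 and 0.23 and were not called. The sign of Tfap2e turned with centring (0.07) and quantile normalization (0.06), and that of Meis2 on the deposited values (-0.01) and after quantile normalization (-0.06). Trpc2 was not analysed here, having no cluster with a single symbol. Of 20 genes of mature chemosensory neurons, Gnao1 was the only one called, and the list median was -0.01.

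Receptor genes were dim. Of 83 vomeronasal receptor genes, 3 were called higher and 6 lower, with a median relative difference of -0.12 and median levels of 2.54 in EPI and 2.78 in MES. Of 717 olfactory receptor genes, 12 were called higher and 68 lower, with a median of -0.17 and median levels of 3.42 and 3.95. Of the 14090 genes counted, 6.85% were called higher and 1.75% lower. Among the 3523 of these with levels up to 5.91, 104 were called higher and 126 lower. Among the 3521 above 8.77, the counts were 361 and 29. Lower calls thus lay among dimmer genes than higher calls: their median level was 5.84, that of higher calls 8.35, and that of all genes 7.63. The part of signal level in the lower calls was not tested.

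Genes of the migrating cells were measured in both fractions. Gnrh1, the hormone gene of GnRH neurons, was at 6.17, 6.20 and 5.66 in EPI and at 7.63, 6.16 and 7.55 in MES, with a relative difference of -0.86 ± 0.42 that was not called (limma adjusted p = 0.14). MES VNO replicate 2 lay within the EPI range, and without it the relative difference was -1.33 and was called. Of 37 genes tied to GnRH neurons or Kallmann syndrome, 1 was called: Dusp6, a phosphatase induced by FGF signalling, higher by 1.41 ± 0.10. Fabp7, a fatty acid binding protein of ensheathing glia, was at 6.32, 6.22 and 5.89 in EPI and at 8.80, 8.16 and 8.50 in MES, a relative difference of -2.10 ± 0.20 (limma adjusted p = 0.00105). The glial gene was therefore higher on every MES array, as were 21.1% of all genes. Tfap2b, a neural crest factor, was lower at -0.95 ± 0.11, a call that centring ended, and the secreted WNT inhibitor Frzb was higher by 1.08. Sox10, a defining factor of these glia, was not called at -0.28, and the list of 16 had a median of -0.08.

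Most mesenchymal and matrix genes were not called. Of 40 genes of mesenchyme identity, 5 were higher in EPI and 1 lower, beside 6.85% and 1.75% of all genes. The list median was 0.30, and 1 was higher on the deposited values. Meox2, a homeobox gene of muscle and connective tissue precursors, was at 7.76, 7.75 and 7.91 in EPI and at 6.84, 6.62 and 6.89 in MES, a relative difference of 1.26 ± 0.11. The related Meox1 rose by 1.06, and Runx1, a RUNX factor of blood and mesenchyme, fell to -1.03 ± 0.10. Of 29 collagens in that list 2 were higher, near the 6.85% of all genes, and 1 was lower, with a median of 0.15 beside 0.14 for all genes. Col11a1, called lower at -1.42 ± 0.09, was counted with the cartilage genes instead. Col6a1 was at 9.77, 9.69 and 9.76 against 8.52, 8.54 and 8.52, a relative difference of 1.45 ± 0.07, with Col6a2, its partner chain, at 1.03 ± 0.08. Col1a1, the main collagen of bone and connective tissue, was not called at 0.30. Of 14 small leucine-rich proteoglycans, which organize collagen fibrils, 4 were higher, with Kera at 1.58 ± 0.14 and Dcn at 1.48 ± 0.11, a count of 2 without EPI VNO replicate 1 or MES VNO replicate 2. Of 37 matrix glycoproteins 2 were higher, a smaller share than the 6.85% of all genes, and 1 was lower. Thbs4, a thrombospondin of tendon and muscle, rose by 1.86 ± 0.07 and Spon1 by 1.07, while Mgp, an inhibitor of mineralization, was at -0.91 and lost its call without EPI VNO replicate 2 or either of MES VNO replicates 1 and 3.

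Cartilage genes went the other way. Of 22 measured, none was higher and 3 were lower in EPI, with a list median of -0.33, and none was called by Rank Products. Col11a1, a fibrillar collagen of cartilage, was at 9.08, 9.12 and 9.27 in EPI and at 10.86, 10.74 and 10.83 in MES, a relative difference of -1.42 ± 0.09 (limma adjusted p = 0.000494). Matn3 and Hapln1, structural proteins of cartilage matrix, were lower at -1.20 ± 0.19 and -1.19 ± 0.13. For these called genes all MES arrays lay above all EPI arrays, which was the case for 21.1% of all genes. The defining genes Col2a1, Acan and Sox9 were not called, at -0.44, -0.44 and -0.56.

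Cell cycle, endothelial, macrophage and respiratory chain genes had medians above that of all genes, and red cell and smooth muscle genes did not. Among the 3521 genes above a level of 8.77 the median was 0.34, and the part of level in these list medians was not tested. Of 22 endothelial genes 4 were higher, with a median of 0.53: the receptor Tek by 1.13 ± 0.12 and the surface protein Cd34 by 1.06 led them, and the count was 0 on the deposited values and 8 with centred arrays. Of 20 macrophage genes 2 were higher, beside 6.85% of all genes, with a median of 0.41. These were Ctss (cathepsin S) by 1.76 ± 0.16 and Adgre1 (F4/80) by 0.96, the latter not called without MES VNO replicate 2. The macrophage count was 1 on the deposited values, 4 without replicate 3 of either group and 6 after quantile normalization. Of 14 genes of smooth muscle and pericytes 3 were higher, among them the actin Acta2 by 1.56 ± 0.12, but the list median was 0.04, members ran down to -0.81 and 1 was higher without MES VNO replicate 2. Of 13 red cell genes 1 was higher, near the share of all genes (6.85%): Alas2, a haem synthesis enzyme, by 1.21. The red cell list median was 0.07, with members down to -0.27. Of 26 cell cycle genes 10 were higher and none lower, with a median of 0.83, against 6 without MES VNO replicate 2, 3 on the deposited values and 2 after quantile normalization. Rrm1, a subunit of ribonucleotide reductase, was at 11.36, 11.28 and 11.29 in EPI and 10.34, 10.02 and 10.44 in MES, a relative difference of 1.29 ± 0.13. The replication helicase genes Mcm3 and Mcm2 rose by 1.17 and 1.03. Respiratory chain genes had a median of 0.63, with 4 of 23 higher and Uqcrc1 the largest at 1.49 ± 0.10, and 1 of 23 on the deposited values.

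Signalling genes showed single large members. Shh, a hedgehog ligand made by epithelia, was at 6.84, 6.96 and 6.95 in EPI and at 5.50, 5.39 and 5.68 in MES, a relative difference of 1.64 ± 0.10 (limma adjusted p = 0.000494). Its receptor and target Ptch1 was not called, at 0.60. Among 49 WNT genes 6 were higher, beside 6.85% of all genes. The largest were inhibitors: Sostdc1 was at 9.45, 9.56 and 9.48 against 7.72, 7.69 and 7.51 (relative difference 2.10 ± 0.09), Wif1 rose by 1.73 ± 0.09 and Sfrp4 by 1.30 ± 0.12. No WNT ligand was called. Of 34 FGF genes 4 were higher, beside 6.85% of all genes, among them the ligands Fgf7 by 1.12, Fgf9 by 1.10 and Fgf1 by 0.93. These ligands were not called on the deposited values or by Rank Products, where the list count was 1. Fgf9 also lost its call after quantile normalization, and Fgf1 without replicate 1 of either group. Of 15 genes of retinoic acid 3 were higher, the synthesizing Aldh1a1 and Aldh1a3 and the degrading enzyme Cyp26a1, by 1.52 ± 0.19. In the BMP and TGF-beta list of 40, 3 genes were higher, near the 6.85% of all genes, and the median was 0.11. These were Inhba, Id3 and Nog, by 1.21, 1.12 and 1.05, and Bmp5, a BMP ligand, fell to -1.17 ± 0.10. Nog was not called without EPI VNO replicate 1 or 3 or MES VNO replicate 3. Axon guidance genes were nearly level: of 32 ligands and 30 receptors, 1 each was lower, beside 1.75% of all genes. These were Efna5 at -0.91 and the ephrin receptor Epha6 at -1.54 ± 0.13. Efna5 was not called with centred arrays, without EPI VNO replicate 2 or without MES VNO replicate 1, which left no ligand called. Hes1, the one Notch gene of 18 called, rose by 0.95 but was not called on the deposited values or after quantile normalization. Cdkn1c, an imprinted inhibitor of the cell cycle, rose by 1.67 ± 0.09.

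The largest rises outside these lists were Lypd10 (3.86 ± 0.17), Lipi, a lipase, (3.47 ± 0.25), Car3, a carbonic anhydrase of muscle and fat, (2.72 ± 0.10), Mcpt2, a mast cell protease, (2.54 ± 0.17) and Abca8a, a membrane transporter, (2.49 ± 0.10). Lipi was at 5.83, 6.13 and 5.68 in EPI and at 3.12, 2.24 and 2.59 in MES. The largest falls were 8430431K14Rik (-3.34 ± 0.17), Phxr4 (-2.97 ± 0.09), Adam4 (-2.43 ± 0.20), Tas2r143, a bitter taste receptor, (-2.33 ± 0.39) and 2310067E19Rik (-2.25 ± 0.13). Phxr4 was at 4.38, 4.60 and 4.47 in EPI and at 7.70, 7.63 and 7.77 in MES. Tas2r143 was dim, at a mean of 2.8 in EPI and 5.4 in MES. These falls were not particular to the VNO. In the OE they were -3.03, -3.12, -2.53, -2.34 and -3.01, in the same order. All were called there, and none was called different between the tissues. Genes were listed here only if their fractions did not overlap, so that trait was set by the choice. Of all genes, 43.4% had EPI arrays above MES arrays with no overlap and 21.1% the reverse. Of the 10 largest falls, Fabp7 was the only list member, and the others included S100g, a calcium binding protein, at -1.77, Tbrg3 at -1.82, Tdpoz1 at -1.78 and B930095G15Rik at -1.76. In the OE, Tbrg3 (-2.33) and B930095G15Rik (-1.42) were called lower too, while S100g, Tdpoz1 and Fabp7 were not called.

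The same difference was then measured in the OE, where 529 genes (3.75%) were called higher in EPI and 227 (1.61%) lower. Of the genes called in the VNO, 275 higher and 63 lower ones were called with the same sign in the OE, and 3 with the opposite sign. A fit over the 12 arrays of E14.5 tested the difference between tissues, relative to its own median shift of 0.15. It called a larger EPI minus MES difference in the VNO for 173 genes (1.23%) and a smaller one for 122 (0.866%). These counts depended on single arrays. Without EPI OE replicate 3, 559 genes were smaller in the VNO and 303 larger, and leaving out 1 of the other arrays gave 43 to 147 smaller and 98 to 183 larger.

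Bone genes differed most between the tissues. In the VNO fractions 8 of 11 were higher in EPI, and in the OE none was higher and 1 lower, with a list median of -0.66. The difference was larger in the VNO for 7 of 11 members. Ibsp was at 8.88, 9.77 and 10.73 in EPI OE and at 10.68, 10.76 and 10.61 in MES OE, so its levels there lay above those of MES VNO in both fractions. Its difference between tissues was 4.75 ± 0.51 (limma adjusted p = 0.00241). Panx3 was at 7.66, 7.39 and 8.73 in EPI OE and 9.36, 9.59 and 9.62 in MES OE, and differed by 3.78 ± 0.41, and Phex differed by 2.91 ± 0.18. In the OE both genes were higher in MES on every array, the reverse of the VNO. Mmp13 differed by 4.03 ± 0.97 but did not pass (limma adjusted p = 0.0592), with EPI OE arrays at 7.17, 3.78 and 6.83.

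Muscle genes were larger in the VNO for 9 of 15 members, with an OE list median of 0.17 and 1 gene called higher there. Myl1 was at 4.55, 4.53 and 4.77 in EPI OE and at 4.75, 4.89 and 4.69 in MES OE, and its difference between tissues was 2.46 ± 0.22 (limma adjusted p = 0.000778). Both OE fractions thus lay near the low MES VNO level. Tnnc1, the OE gene called higher, differed by 2.23 ± 0.26 and Myog by 1.82 ± 0.23.

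Neuronal genes leaned the other way. In the OE 9 of 32 genes of immature neurons were higher in EPI, with a list median of 0.89, beside 3.75% of all genes. At E12.5 in the OE 15 were higher, with a median of 0.77 (3.55% of all genes higher, 1.97% lower). At E11.5 in the olfactory placode 16 were higher, with a median of 0.87 (3.74% and 1.33% of all genes). In the VNO the list median was -0.28, yet 1 member, Nefm, passed the test of the difference, at -1.23 ± 0.24. Elavl3 differed by -1.85 ± 0.50 and did not pass (limma adjusted p = 0.081), with EPI OE arrays spread over 9.91, 10.84 and 8.95. EPI OE replicate 2 was the highest and replicate 3 the lowest of these. Called differences smaller in the VNO included Fezf2 (-2.56 ± 0.56) and Neurod2 (-2.31 ± 0.41), transcription factors of neurons, Nts, the neurotensin gene, (-2.42 ± 0.44), Tbx22, a palate factor, (-2.65 ± 0.31) and Gal3st1, a sulfotransferase of myelin lipids, (-2.01 ± 0.31). Nts was at 6.90, 8.17 and 6.63 in EPI OE and 4.37, 4.61 and 4.59 in MES OE, beside 6.60 to 6.83 in EPI VNO and 6.17 to 6.33 in MES VNO.

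For keratins and for Cbr2 no difference between tissues was called, which does not show that they are equal. Keratins had an OE list median of 1.08 with 5 of 11 higher, and no member passed the test between tissues. Krt19 differed by -0.09 ± 0.23 and Cbr2 by 0.14 ± 0.21. In the detoxifying list Aldh1a3 was larger in the VNO, by 1.04 ± 0.16, while Cyp1b1 and Ces1f were smaller. Of the cell cycle genes none was called in the OE, where the list median was 0.34, but none passed the test between tissues, so that the lists differ was not shown.

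**Figure D3:**
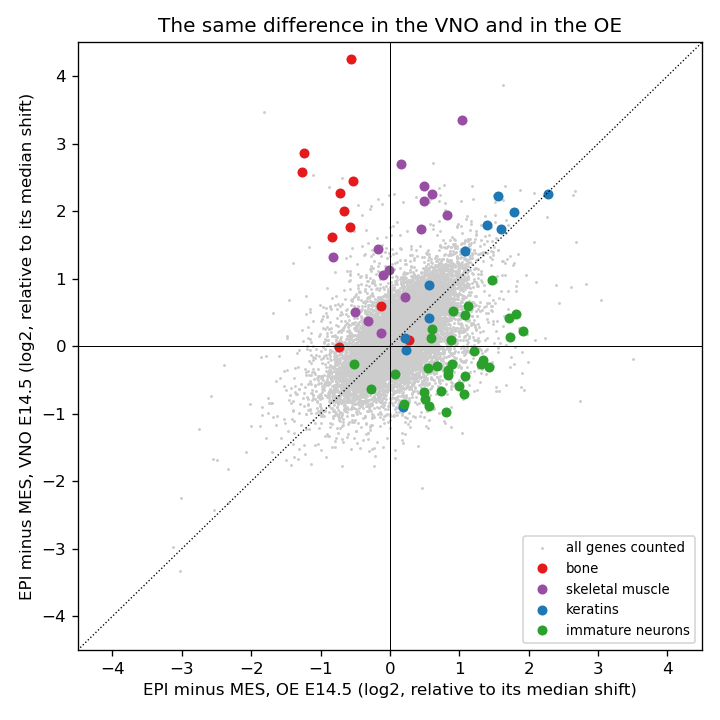
Relative EPI minus MES difference in the VNO (vertical axis, log2) against that in the OE (horizontal axis, log2) at E14.5 for all genes counted (grey) and for members of 4 lists, with a dotted line at equal values. Bone genes lie high on the left (Ibsp at 4.26 in the VNO and -0.56 in the OE), muscle genes mostly above the line, keratins on both sides of it and immature neuron genes mostly below it.

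**Figure D4:**
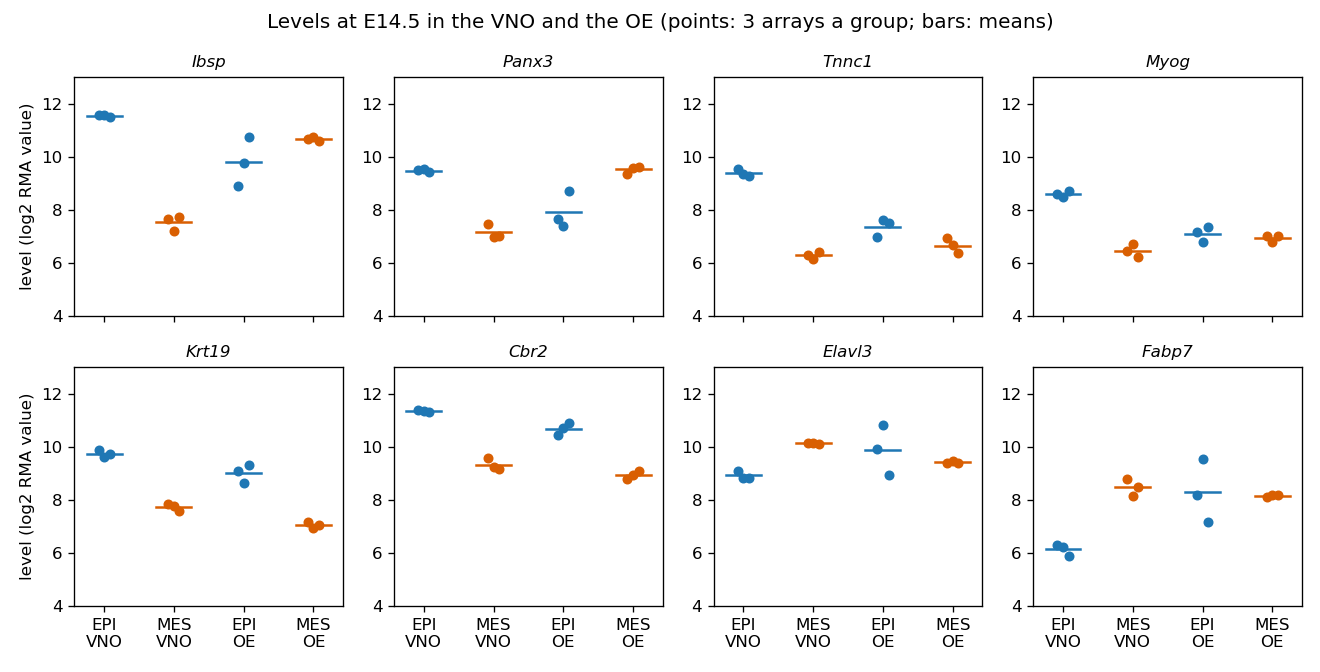
Levels of 8 genes (log2 RMA value, as deposited) in EPI and MES of the VNO and the OE at E14.5, with 1 point for each of 3 arrays a group and a bar at the mean. Ibsp and Panx3 are lowest in MES VNO, Tnnc1 and Myog are highest in EPI VNO, and EPI OE arrays are spread for Ibsp, Elavl3 and Fabp7.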

How the data were processed

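Per the labels and methods, the authors extracted pooled RNA with Trizol, depleted ribosomal RNA, hybridized amplified cDNA to Affymetrix Mouse Exon 1.0 ST arrays and computed RMA values, run separately for each pairwise comparison according to the methods. The submitters' notes list mm9 as the genome build and give RMA no version number. On the log2 scale, the deposited table has 23339 transcript clusters, of which 23238 have values on these arrays. Array medians differ between fractions, so a common scale is not established, and levels of the VNO and the OE set side by side carry this limit. Background signal per probe was not used here, so no detection limit is given, and the number of arrays limits the precision.

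Clusters carry 1 gene symbol (14996), several (1019) or none (7324) in the platform annotation. Only the first kind was used for genes, taking the brightest cluster for the 131 genes with more than 1, and 717 olfactory receptor genes were counted apart. The gene lists, the members named and the tests were chosen with earlier results of these data known.

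The 6 arrays were fitted with limma 3.58.1 (lmFit, eBayes) in R 4.3.3 after the median EPI minus MES difference of all clusters had been removed from the EPI arrays, and an interaction over 12 arrays tested the VNO against the OE. P-values are two-sided and adjusted by Benjamini-Hochberg over all clusters. With 3 arrays a group, an exact permutation test could not go below p = 0.1, so none is given. Named genes are the 10 largest rises and falls among called genes without overlap, 2 to 4 called members of largest size for each list described, the marker genes of the methods, 8 vomeronasal genes, the 5 largest called differences between tissues each way, and members whose role is described. Simulated arrays had 200 of 23238 clusters changed. There, 54% of changes of 1 and 86% of changes of 2 on the log2 scale were recovered in the VNO pair, and 46% and 80% between tissues. Each had 5 false calls among the unchanged clusters. The measured VNO pair had far more differing genes (4755 higher and 2060 lower with no minimum fold), so these rates describe the simulated setting only. Alternatives were the deposited scale, centring, quantile normalization, Rank Products with 100 permutations in code written for this purpose, bright clusters only, a variance trend, no minimum fold, 1 fit over 24 arrays, a replicate block, the mean of a gene's clusters and leaving out each array. Promoter windows are from RefSeq, build GRCm38.p6.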

Additional observations from a re-analysis of the deposited data

Results flagged for a closer look

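For 32 of the named genes the EPI minus MES difference itself differed between the VNO and the OE at E14.5, by the limma interaction over 12 arrays relative to its median shift, with an adjusted p no higher than 0.05 and a size of 0.9 or more. The values in brackets are the log2 difference of the VNO minus that of the OE. Some genes were named only because this test called them (Fezf2, Gal3st1, Neurod2, Nts, Slc13a5 and Tbx22), so their passing was set by the choice. Others were named for large differences in the VNO, and those values enter the same test. The count of 32 and the counts below that rest on it therefore describe these chosen genes only.

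Larger differences in the VNO were found for the bone genes Ibsp (4.75), Panx3 (3.78), Phex (2.91) and Sp7 (2.59) and the muscle genes Tnnc1 (2.23), Myl1 (2.46), Myog (1.82) and Tnni1 (1.59). The matrix genes Col6a1 (1.43), Col6a2 (1.31), Dcn (0.99), Spon1 (1.46) and Thbs4 (1.08) and the mesenchymal gene Meox2 (1.42) were also larger. So were the signalling genes Fgf7 (1.67) and Wif1 (2.01), the enzymes Aldh1a3 (1.04), Car3 (2.03), Lipi (5.22) and Mcpt2 (3.58), the transporters Abca8a (3.11) and Slc13a5 (3.17) and Lypd10 (2.16).

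Smaller differences in the VNO were found for the neuronal genes Fezf2 (-2.56), Neurod2 (-2.31) and Nts (-2.42), the receptor Epha6 (-1.68), the palate factor Tbx22 (-2.65), the proteoglycan Epyc (-1.97), the calcium binding S100g (-1.61), the sulfotransferase Gal3st1 (-2.01) and Tdpoz1 (-1.15). Of the 23 larger differences, 14 had the opposite sign in the OE. Of these, Lipi (-1.81) and Panx3 (-1.27) were called lower in EPI there, and the other 12, at -1.11 (Mcpt2) to -0.05, were not called in the OE. Of the 9 smaller differences, 5 had the opposite sign in the OE, and 3 of them (Fezf2, Neurod2 and Tbx22) were called higher in EPI there but not called in the VNO. Epyc, a proteoglycan of cartilage and other matrix, was higher in EPI in both tissues, by 0.92 in the VNO and 2.82 in the OE, and its VNO call was lost on the deposited values, by Rank Products and without EPI VNO replicate 1 or MES VNO replicate 2. Slc13a5, a citrate transporter, was at 8.30, 8.30 and 8.11 in EPI VNO and at 6.08, 6.11 and 6.16 in MES VNO, and its OE difference was -0.87. Of these 32 differences, 4 were not called with a replicate block, and all 32 were called on the deposited values and after quantile normalization. Leaving out EPI OE replicate 3 ended none of these calls, and leaving out any other 1 of the 12 arrays ended 2 to 7 of them. The 7 were reached without EPI VNO replicate 3, MES OE replicate 2 or MES OE replicate 3.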

How the results depend on the processing

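Counts in the VNO pair were 965 higher and 246 lower in EPI. They became 401 and 653 on the deposited values, 288 and 6 by Rank Products, and 4755 and 2060 with no minimum fold, and the lower count became 157 with centred arrays and 93 among bright clusters. Leaving out an array gave 829 (MES VNO replicate 2) to 1044 higher and 235 to 266 lower. A variance trend, 1 fit over 24 arrays, the mean of a gene's clusters and quantile normalization moved neither count by over 1.5 times. Between tissues, 173 larger and 122 smaller differences became 286 and 70 on the deposited values and 269 and 227 with no minimum fold. Leaving out an array gave 98 to 303 larger and 43 to 559 smaller differences. The larger count moved by over 1.5 times without EPI OE replicate 3 (303), MES OE replicates 1 (106), 2 (111) and 3 (98), EPI VNO replicates 1 (101) and 3 (115), and MES VNO replicate 3 (107). The smaller count did so without EPI OE replicate 3 (559), MES OE replicates 1 (62), 2 (43) and 3 (44), EPI VNO replicates 1 (55), 2 (72) and 3 (54), and MES VNO replicates 1 (77), 2 (64) and 3 (67). Fewer arrays enter these fits. Both counts rose without EPI OE replicate 3, and the EPI OE replicates correlated with Pearson's r of 0.963 to 0.974. The cause of these changes was not tested.

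Same-numbered EPI and MES arrays did not deviate together (r of 0.01, -0.02 and -0.04). This gave no sign that the numbers pair the samples, but so few arrays cannot exclude it. With a replicate block 967 genes were higher and 237 lower, no named gene changed its call in the VNO pair, and between tissues 131 differences were larger and 77 smaller.

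Of 113 named genes called, 80 were called the same way on the deposited values, 94 after quantile normalization, 52 by Rank Products, and 98 without each of the 6 arrays in turn. Small values turned in sign for 3 uncalled genes: Gnai2 (0.20) was at -0.04 on the deposited values and -0.15 after quantile normalization, Meis2 (0.23) at -0.011 and -0.064, and Tfap2e (-0.04) at 0.071 with centring and 0.062 after quantile normalization. Leaving out an array gave Tfap2e values from -0.11 (without MES VNO replicate 1) to 0.063 (without MES VNO replicate 2), with 0.001 without EPI VNO replicate 2. The true scale between fractions is not known, and dim genes, which hold many of the lower calls, limit the depth of the comparison.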
